A study of Mus musculus with 32 samples.

Results

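The effect of prolonged social isolation on translated mRNA of S100a10 cells was examined by comparing the 4 TRAP libraries of single-housed mice given vehicle (Sh) with the 4 TRAP libraries of group-housed mice given vehicle (Gh), chosen by the housing and treatment in their labels, 8 of 32 libraries of the series. All mice of both groups carried Tg(S100a10-EGFP/Rpl10a)ES691Htz, 1 founder line in which the ribosomal protein L10a fused to EGFP is made under regulatory elements of S100a10. The mice were male; Sh mice lived alone from weaning into adulthood, and the label of both groups gives their behavior as normal. Each library holds RNA from the cortices of 3 pooled mice, without hippocampus and striatum, so that a library is a pool and not an animal. The p-values measure the spread between libraries, which may be in part technical. The whole-cortex RNA of the same groups (input, 4 Gh and 4 Sh libraries) and the 8 TRAP libraries of single-housed mice given fluoxetine entered the fits or are quoted beside single genes. The fluoxetine libraries include those labeled anxious as well as those not so labeled, and ranges quoted for them pool both. Input libraries of the fluoxetine groups also entered the fits of input.

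In translating ribosome affinity purification (TRAP), polysomes that carry the tagged ribosomal protein are pulled down with antibodies against EGFP, and the mRNAs on them are sequenced. S100a10 encodes p11, an adaptor protein that brings serotonin receptors and channels to the cell surface and that is linked to responses to antidepressants. In motor and somatosensory cortex it marks neurons of layer 5a that project to the striatum, but it is also made in the membranes around the brain and in vessels, so that the tag can reach cells other than neurons.

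The libraries did not form 2 sets of 4 alike. Counts in genes ranged from 9776244 to 40009904 in Gh and from 11739667 to 32956050 in Sh. Gh TRAP 2 and 3 differed by no more than sampling noise (mean chi-square per gene of 1.13, with 11 of 14157 genes different) so they were merged into 1 sample, giving 3 Gh samples. Sh TRAP 1 and 4 were also close, with a chi-square of 2.17 and 497 of 14321 genes different, whereas the other pairs of Sh libraries had values of 64.8 to 407. They were kept as separate samples, and p-values are too small if they came from the same pool. S100a10, which lies on chromosome 3 of GRCm38 from 93555117 to 93564645, stood at 56.9, 57.2 and 57.8 CPM in the Gh samples (counts relative to the total, scaled by TMM, as for all single genes unless stated), and at 57.3, 20.6, 13.0 and 62.5 CPM in Sh TRAP 1 to 4. Sh TRAP 2 and 3 thus fell below every other sample, and the log2 fold change of -0.57 (standard error, SE, of 0.36 in the quasi-likelihood test of edgeR, with adjusted p = 0.432) became 0.06 without them.

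The same 2 libraries were high in Malat1, a noncoding RNA kept in the nucleus, with 25670 and 47360 CPM against 6108 and 6259 CPM in Sh TRAP 1 and 4. Of their reads, 50.3% and 58.6% fell outside the annotation, while the other 6 libraries had 34.7% to 39.8%. When the log2 level of each gene relative to input was regressed on the same ratio in the fluoxetine groups, the slope was 0.82 to 0.94 in those 6 libraries and 0.52 and 0.44 in Sh TRAP 2 and 3, so that genes stood less far from their level in whole cortex. Results that rest on them are therefore given with and without these libraries. Their part in any difference that both pairs of Sh libraries do not show was not tested.

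**Figure D1:**
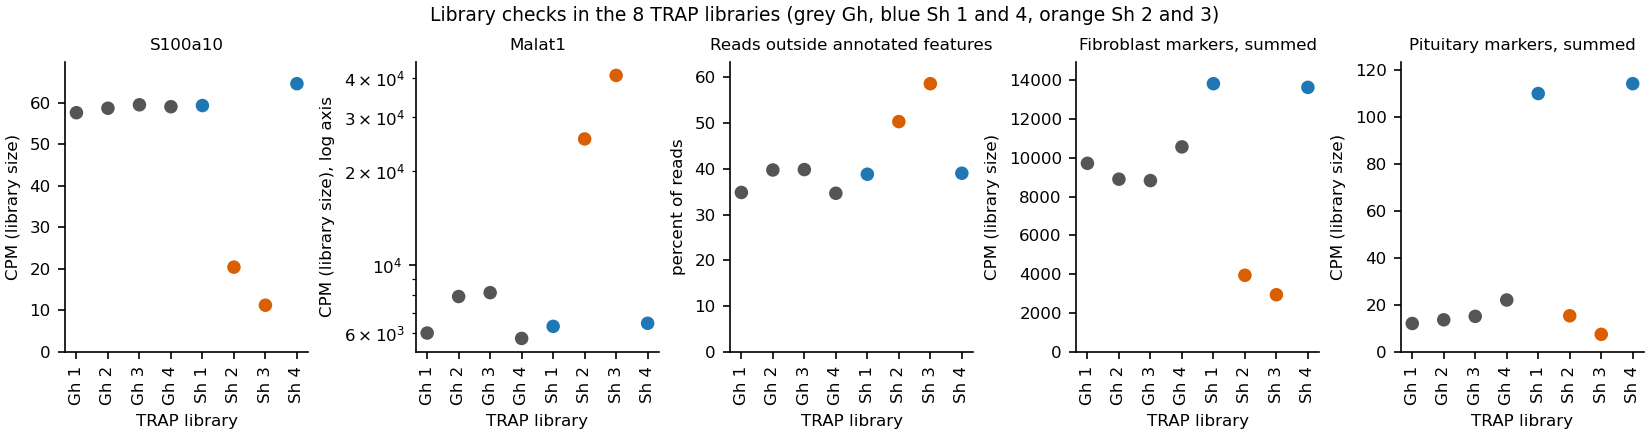
S100a10, Malat1, reads outside annotated features, and the summed markers of fibroblasts and of the pituitary (vertical axes; CPM relative to library size, percent for the reads, log axis for Malat1) in the 4 Gh (grey) and 4 Sh (blue for 1 and 4, orange for 2 and 3) TRAP libraries, 1 point for each library. Sh TRAP 2 and 3 lie at 50.3% and 58.6% of reads outside features, and Sh TRAP 1 and 4 reach 110 and 114 CPM of pituitary markers where the other 6 libraries lie between 7.35 and 22.0.

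No gene passed the threshold of 0.05 on the adjusted p between Sh and Gh in TRAP mRNA. Of 16754 genes tested with edgeR, 0 were called (0%), while before adjustment 2634 (15.7%) had p under 0.05. DESeq2 called 204 (1.22%), 130 of them higher (0.776%) and 74 lower (0.442%) in Sh. In 1034 genes (6.17%) all 4 Sh samples stood above all 3 Gh samples, and in 1153 genes (6.88%) all 4 stood below. With replicates 1 and 4 and replicates 2 and 3 of each group summed, 0 of 17296 genes were called and 1097 (6.34%) had p under 0.05 before adjustment. The genes named next were drawn from the 2187 genes that do not overlap (13.1%) by their p, and their order is a description. The median biological coefficient of variation was 0.27 with all libraries and 0.20 without Sh TRAP 2 and 3.

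The gene with the smallest p was Nrbf2, which encodes a subunit of the lipid kinase complex that starts autophagy and was lower in Sh. It lies on chromosome 10 from 67266689 to 67285343. Nrbf2 stood at 23.9, 23.1 and 23.8 CPM in the 3 Gh samples and at 10.6, 12.7, 12.7 and 10.4 CPM in Sh TRAP 1 to 4. No Sh library came near the Gh range, those low in S100a10 included. The log2 fold change of Nrbf2 was -1.03 (SE 0.17, with edgeR adjusted p = 0.115 and DESeq2 adjusted p = 6.41e-05), and with Sh TRAP 1 and 4 alone it was -1.17 (edgeR, adjusted p = 0.0209). In the 8 fluoxetine libraries, also from single-housed mice, Nrbf2 ranged from 18.1 to 26.5 CPM. In input Nrbf2 differed by 0.01 (standard error 0.12), and the difference between the fractions was -1.03 (adjusted p = 0.0511 from edgeR).

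The 10 lower genes of smallest p held 3 for mitochondrial proteins, a description given without the share of such genes among all genes. Lyrm7, an assembly factor of respiratory complex III, stood at 28.2, 24.6 and 28.5 CPM in Gh and at 13.9, 16.1, 12.4 and 15.2 CPM in Sh TRAP 1 to 4 (log2 fold change -0.92, standard error 0.17, edgeR adjusted p = 0.178). Cox5b, a subunit of cytochrome c oxidase, stood at 100.3, 86.6 and 89.0 CPM in Gh and at 60.4, 40.0, 29.4 and 58.6 CPM in Sh (log2 fold change -0.96, standard error 0.20, edgeR adjusted p = 0.206). Coa3, which helps to assemble the same enzyme, stood at 26.6, 19.6 and 24.7 CPM in Gh and at 14.3, 13.8, 9.79 and 12.7 CPM in Sh. For Lyrm7 and Coa3 both pairs of Sh libraries were displaced alike, by -0.90 and -0.80 on the log2 scale in Sh TRAP 1 and 4 and by -0.94 and -1.02 in Sh TRAP 2 and 3. Cox5b differed by -0.63 in the former and by -1.42 in the latter.

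The bases upstream of the start in a promoter entry are shown for Nrbf2 and these 3 mitochondrial genes, the named lower genes of known role in autophagy and respiration. They are the 250 bases before the start of the promoter entry, 5′ to 3′ on the strand of the gene, from RefSeq on GRCm38.p6. The capitals mark exact matches on either strand to the E-box CACGTG, the CCAAT box (CCAAT or ATTGG), the NRF1 core TGCGCA and the inner part of the cAMP response element (GACGTCA or TGACGTC). None of the marked matches overlap each other. For Nrbf2 the start of the promoter entry lies within the gene span given above. The last bases of its stretch, with the match GACGTCA, therefore fall inside that span.
Nrbf2 (chr10:67285282-67285531, minus strand): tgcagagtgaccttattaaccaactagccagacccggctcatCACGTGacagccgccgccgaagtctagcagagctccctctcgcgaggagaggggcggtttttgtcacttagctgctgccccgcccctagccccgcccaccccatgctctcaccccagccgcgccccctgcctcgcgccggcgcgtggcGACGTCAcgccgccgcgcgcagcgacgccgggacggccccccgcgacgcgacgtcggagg
Cox5b (chr1:36691237-36691486, plus strand): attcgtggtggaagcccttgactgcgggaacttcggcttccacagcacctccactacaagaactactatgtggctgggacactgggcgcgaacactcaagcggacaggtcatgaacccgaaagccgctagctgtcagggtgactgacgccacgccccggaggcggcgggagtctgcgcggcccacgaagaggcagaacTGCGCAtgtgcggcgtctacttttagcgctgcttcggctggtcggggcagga
Lyrm7 (chr11:54860598-54860847, minus strand): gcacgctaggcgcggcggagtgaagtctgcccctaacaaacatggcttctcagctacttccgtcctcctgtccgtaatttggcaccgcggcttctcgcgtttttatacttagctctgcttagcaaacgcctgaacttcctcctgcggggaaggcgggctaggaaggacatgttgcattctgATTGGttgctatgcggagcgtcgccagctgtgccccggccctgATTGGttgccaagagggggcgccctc
Coa3 (chr11:101278949-101279198, minus strand): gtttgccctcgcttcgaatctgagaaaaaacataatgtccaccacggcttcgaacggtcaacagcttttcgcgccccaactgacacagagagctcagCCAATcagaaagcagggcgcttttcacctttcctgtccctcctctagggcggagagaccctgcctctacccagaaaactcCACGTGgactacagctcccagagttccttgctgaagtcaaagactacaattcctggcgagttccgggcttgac

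An E-box stood in the stretches of Nrbf2 and Coa3, in 2 of the 8 genes with a RefSeq stretch among the 10 lower genes of smallest p, against 6.02% of all 32851 stretches of this length. The NRF1 core stood in 2 of the 8 (Cox5b and Dynlrb2) against 6.43%, the CCAAT box in 3 (Coa3, Lyrm7 and Zfp873) against 33.8%, and the inner cAMP response element in 1 (Nrbf2) against 2.78%. Of the 10 higher genes of smallest p, 9 had a stretch, and the only match among them was a CCAAT box in Pik3c2b. These counts are too few for a comparison of shares, and a match is a run of letters and not a bound site.

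Zfp873, a zinc finger gene on chromosome 10 (82048084 to 82077727), was the second lower gene by p. It stood at 16.6, 14.8 and 15.98 CPM in Gh and at 6.83, 6.54, 5.93 and 7.08 CPM in Sh TRAP 1 to 4, with less spread within each group than any difference between them. Its log2 fold change was -1.26 (SE 0.21, with edgeR adjusted p = 0.115 and DESeq2 adjusted p = 0.00011), with -1.18 in Sh TRAP 1 and 4 and -1.35 in Sh TRAP 2 and 3. The fluoxetine libraries, at 6.39 to 11.2 CPM, all lay below the Gh samples, and the lowest lay within the Sh range. In input Zfp873 differed by 0.26 (standard error 0.17), in the other direction.

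Snx2, a sorting nexin of the retromer coat, stood at 218, 215 and 212 CPM in Gh and at 157, 112, 124 and 155 CPM in Sh (log2 fold change -0.65, standard error 0.14, edgeR adjusted p = 0.206). Rilpl2, an effector of Rab GTPases, stood at 12.8, 10.4 and 13.3 CPM in Gh and at 4.87, 7.23, 3.17 and 5.22 CPM in Sh. Dynlrb2, a light chain of dynein, was scarce, at 4.24, 2.28 and 5.92 CPM in Gh and at 0.79, 0.17, 0.41 and 0.62 CPM in Sh, which rests on 2 to 27 counts in a Sh library. Its log2 fold change was -2.996 (SE 0.60, with edgeR adjusted p = 0.206 and DESeq2 adjusted p = 0.00102), and the fluoxetine libraries lay at 0.43 to 1.55 CPM, also below the Gh samples. Mtap7d3, named for the microtubule-associated protein 7 family, spread widely in Gh, at 4.54, 10.3 and 2.47 CPM, and lay at 1.99, 0.95, 1.24 and 1.34 CPM in Sh.

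Gng3, which encodes a neuronal G protein gamma subunit, stood at 305, 245 and 319 CPM in Gh and at 191, 171, 106 and 187 CPM in Sh (log2 fold change -0.82, standard error 0.18, edgeR adjusted p = 0.206). Thap11, a zinc finger transcription factor, stood at 30.7, 26.8 and 26.5 CPM in Gh and at 17.9, 14.5, 11.5 and 19.2 CPM in Sh. Tnnt2, the T subunit of cardiac troponin, stood at 23.6, 17.6 and 31.3 CPM in Gh and at 8.06, 9.38, 16.6 and 7.96 CPM in Sh, with Sh TRAP 3 nearest to Gh. Further genes were named for a large difference in both pairs of Sh libraries, whether or not the pairs were equal. The smaller of the 2 log2 differences was -1.21 for the transcription factor Dmrta1, -1.12 for Cytip, which binds cytohesins, and -1.10 for the growth factor Pdgfc. It was -1.07 for the phosphatase Lhpp and -0.95 for the transcription factor Sox4. Pdgfc stood at 7.27, 6.003 and 10.6 CPM in Gh and at 3.49, 2.93, 4.50 and 3.36 CPM in Sh, with fluoxetine libraries at 4.07 to 9.47 CPM across both ranges.

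Plxnd1, a receptor for semaphorins that steers axons, was among the genes higher in every Sh library and stood at 20.7, 22.4 and 21.9 CPM in Gh and at 38.0, 46.4, 34.5 and 36.4 CPM in Sh TRAP 1 to 4. Its log2 fold change of 0.84 (SE 0.19, with edgeR adjusted p = 0.206 and DESeq2 adjusted p = 0.0145) was close in both pairs, at 0.78 in Sh TRAP 1 and 4 and 0.89 in Sh TRAP 2 and 3. Pik3c2b, a class II phosphoinositide 3-kinase and the higher gene of smallest p, stood at 26.9, 30.04 and 28.1 CPM in Gh and at 45.5, 60.4, 72.0 and 40.3 CPM in Sh (log2 fold change 0.94, standard error 0.20, edgeR adjusted p = 0.206). Med23, a subunit of the Mediator complex, stood at 14.6, 17.3 and 15 CPM in Gh and at 21.8, 31.9, 34.8 and 22.8 CPM in Sh. For Pik3c2b and Med23 the libraries low in S100a10 were the higher ones.

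Rasl10a, a small GTPase of the Ras family, stood at 4.75, 3.57 and 6.41 CPM in Gh and at 9.85, 8.87, 8.503 and 9.72 CPM in Sh. The 4 Sh libraries lay within a narrow range, and the fluoxetine libraries, at 10.4 to 16.02 CPM, were higher still. Its log2 fold change was 0.91 (SE 0.22, with edgeR adjusted p = 0.206 and DESeq2 adjusted p = 0.0161). Aspg, an asparaginase, stood at 0.71, 0.59 and 0.29 CPM in Gh and at 2.35, 3.70, 1.93 and 2.58 CPM in Sh (log2 fold change 2.35, standard error 0.58), on 7 to 15 counts in a Gh library. Me3, the mitochondrial NADP-dependent malic enzyme, stood at 8.79, 15.9 and 11.97 CPM in Gh and at 22.8, 27.1, 37.9 and 22.3 CPM in Sh.

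Gpr155, a membrane protein of lysosomes, stood at 41.0, 38.0 and 45.2 CPM in Gh and at 55.8, 81.3, 133 and 58.8 CPM in Sh, so that its log2 fold change was 0.47 in Sh TRAP 1 and 4 and 1.37 in Sh TRAP 2 and 3. Ptchd4, a patched domain protein, differed by 0.72 and 1.47 in the same 2 sets, and Phex, an endopeptidase known from phosphate balance, by 1.62 and 2.50. Grin1os, annotated antisense to the NMDA receptor gene Grin1, stood at 0.10, 0.47 and 0.32 CPM in Gh and at 1.52, 5.68, 3.22 and 1.498 CPM in Sh. The library kit does not mark strand, so that its reads cannot be told apart from those of Grin1 where they overlap.

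Gabrq, the theta subunit of the GABA-A receptor, was among the higher genes with a large difference in both pairs of Sh libraries. It stood at 2.12, 2.71 and 2.40 CPM in Gh and at 6.80, 5.17, 10.7 and 6.05 CPM in Sh (log2 fold change 1.57, SE 0.44, with edgeR adjusted p = 0.206 and DESeq2 adjusted p = 0.0354). Kif26b, of the kinesin family, stood at 1.31, 3.40 and 2.96 CPM in Gh and at 6.42, 6.54, 7.72 and 6.82 CPM in Sh. The smaller of the 2 log2 differences was 1.33 for Kif26b, 1.19 for the semaphorin Sema4g, 1.18 for the desmosome protein Pkp2 and 1.13 for Syndig1l. It was 1.11 for Gdap10, 1.09 for the orphan receptor Gpr101 and 1.09 for Gldc, the glycine decarboxylase that is abundant in astrocytes. The summed astrocyte markers were also higher in Sh, though not every member was, as given with the markers.

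**Figure D2:**
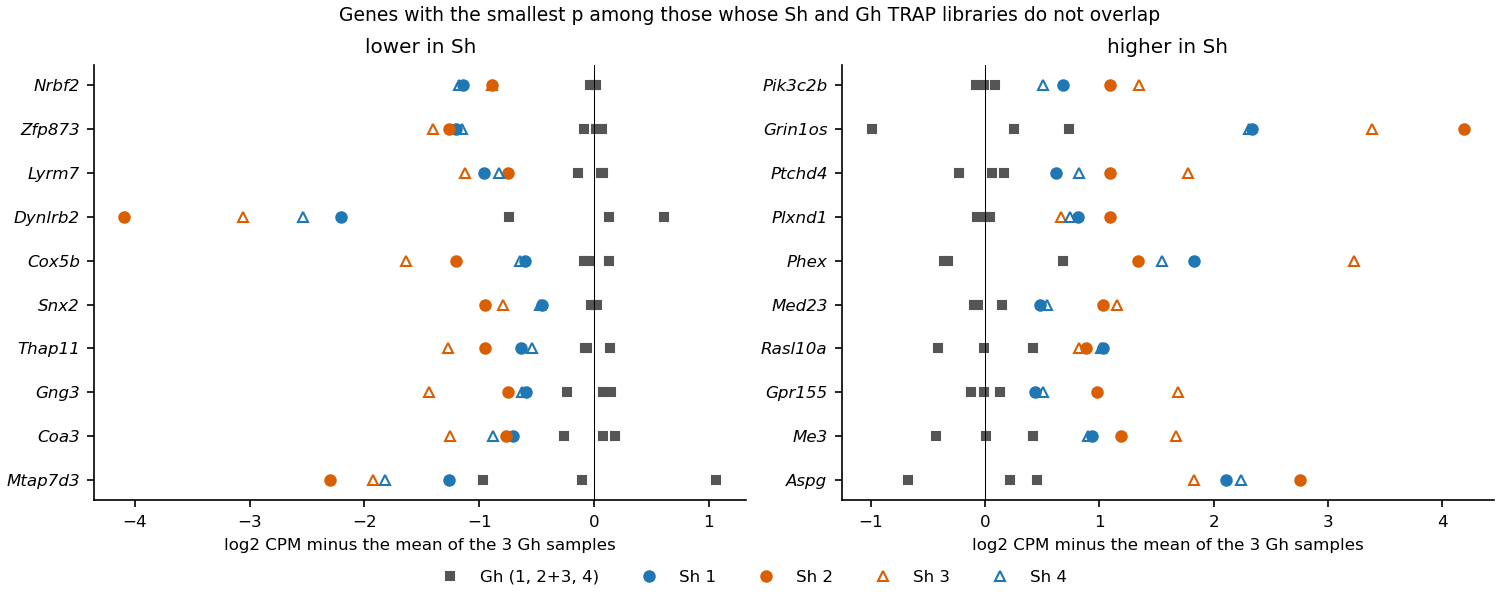
Log2 CPM minus the mean of the 3 Gh samples (horizontal axes) for the 10 lower and the 10 higher genes of smallest p (vertical axes) among genes whose Sh and Gh TRAP libraries do not overlap; each point is 1 library (grey squares Gh, blue Sh 1 and 4, orange Sh 2 and 3). Zfp873 and Rasl10a show all 4 Sh libraries close together, at log2 fold changes of -1.26 and 0.91, while Cox5b and Gpr155 lie farther from Gh in Sh 2 and 3 than in Sh 1 and 4.

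With Sh TRAP 1 and 4 alone against Gh, edgeR called 6 of 16998 genes (0.0353%), 3 higher and 3 lower (0.0176% each), and 2344 genes had p under 0.05 before adjustment. DESeq2 called 257 (1.51%), 93 higher (0.547%) and 164 lower (0.965%). Without Gh TRAP 1, or without Gh TRAP 4, edgeR called 1 gene, and the closeness of Sh TRAP 1 and 4 given above applies to each of these p-values. The 3 lower genes were Nrbf2, Tnnt2 (log2 fold change -1.59, edgeR adjusted p = 0.0302) and Mief1, a receptor that draws the fission machinery to the mitochondrial surface. Mief1 stood at 25.8, 29.2 and 27.3 CPM in Gh, at 11.3 and 11.9 CPM in Sh TRAP 1 and 4 and at 23.8 and 20.2 CPM in Sh TRAP 2 and 3. It fell by 1.24 on the log2 scale in the former (edgeR adjusted p = 0.0137) and differed by -0.33 in the latter. Katnbl1, which regulates the microtubule-severing enzyme katanin, was higher, at 40.9 and 42.4 CPM against 18.4 to 21.0 in Gh (log2 fold change 1.09, edgeR adjusted p = 0.0360). In the other Sh libraries Katnbl1 stood at 14.5 and 39.9 CPM, 1 below and 1 above the Gh range.

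The other 2 genes called were hormones of the anterior pituitary, growth hormone (Gh) and prolactin (Prl). Growth hormone had 2111 and 1284 counts in Sh TRAP 1 and 4, which is 64.1 and 68.5 CPM of library size, and 1 count in the other 6 TRAP libraries of Gh and Sh together. Prolactin stood at 19.6 and 18.7 CPM of library size in Sh TRAP 1 and 4, on 645 and 350 counts, and the other 6 libraries held 2 counts together. The same replicate numbers of input held these mRNAs, with 95.5 and 88.7 CPM of growth hormone and 33.98 and 35.1 CPM of prolactin in Sh input 1 and 4, and at most 1 count of either in the other 6 input libraries of Gh and Sh. The summed pituitary markers were 110 and 114 CPM in Sh TRAP 1 and 4 and 7.35 to 22.0 CPM in the other 6 TRAP libraries. Pituitary tissue in the dissection and a change in the cortex cannot be told apart for these 2 genes.

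Sh TRAP 2 and 3 alone against Gh gave 5001 of 17107 genes called (29.2%), 2323 higher (13.6%) and 2678 lower (15.7%). To compare the 2 pairs of Sh libraries without a common control, Sh 1 and 4 were set against Gh 1 and 4, and Sh 2 and 3 against Gh 2 and 3. Over 11321 genes at a mean of at least 5 CPM the Pearson correlation of the 2 sets of log2 changes was -0.01, and 49.6% of the genes had the same sign. The changes also differed in size, with a standard deviation over genes of 0.34 within replicates 1 and 4 and of 0.70 within replicates 2 and 3. The correlation is across genes, which share libraries and are not independent replicates. Zfp873 differed by -1.22 and -1.23 in the 2 sets and Nrbf2 by -1.18 and -0.85, and since both were chosen for Sh libraries that all lie below Gh, the equal sign follows from the choice.

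**Figure D3:**
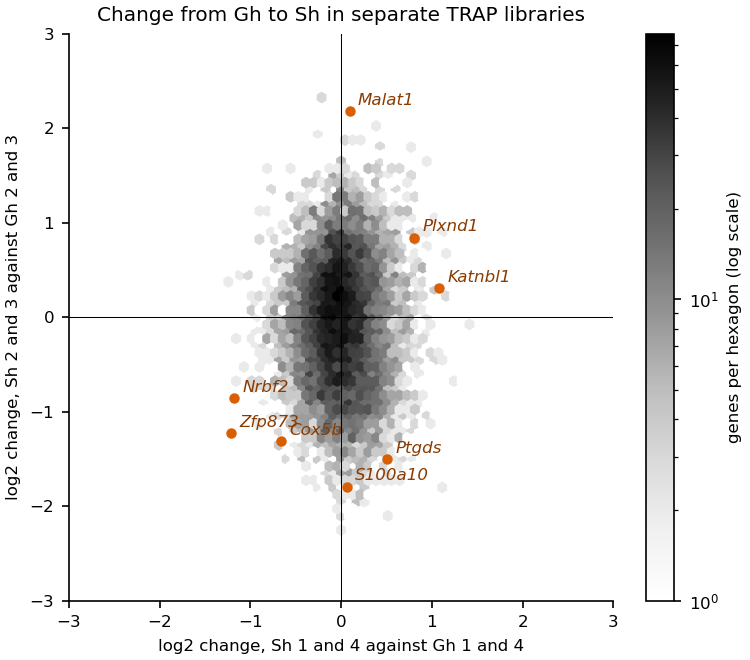
Log2 change of Sh 1 and 4 against Gh 1 and 4 (horizontal axis) and of Sh 2 and 3 against Gh 2 and 3 (vertical axis) for 11321 genes at a mean of at least 5 CPM in TRAP (shading, genes per hexagon on a log scale; 2 genes lie beyond the axes), with named genes in orange. The cloud is upright with a correlation of -0.01; S100a10, Malat1 and Ptgds lie far from 0 on the vertical axis alone or more than on the horizontal one, and Nrbf2, Zfp873 and Plxnd1 lie away from 0 on both.

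Genes that code for energy supply and protein synthesis stood lower in Sh as groups, mostly through Sh TRAP 2 and 3. Of 83 subunits of the respiratory chain, 78 had a negative log2 fold change and 22 (26.5%) stood below Gh in every library, against 6.88% of all genes. The median was -0.41 over all libraries against 0.02 for all genes, -0.07 in Sh TRAP 1 and 4 and -0.99 in Sh TRAP 2 and 3. Beside Cox5b, the members of smallest p were Ndufa11 and Ndufa6 of complex I, at -0.89 (edgeR adjusted p = 0.206) and -0.81. Ndufa11 stood at 17.3, 12.9 and 19.8 CPM in Gh and at 10.5, 9.04, 7.22 and 8.99 CPM in Sh.

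All 80 cytosolic ribosomal proteins had a negative log2 fold change, with 13 (16.3%) below Gh in every library and a median of -0.41. The median was 0.03 in Sh TRAP 1 and 4 and -1.09 in Sh TRAP 2 and 3, so that the 2 pairs did not share it. Of 77 mitochondrial ribosomal proteins, 16 (20.8%) stood below Gh in every library, against 6.88% of all genes (median -0.32, with -0.06 in Sh TRAP 1 and 4). Mrps33, a protein of the small mitochondrial subunit, was among those lower in each pair, at 136, 125 and 122 CPM in Gh and 91.6, 73.4, 76.5 and 94.4 CPM in Sh. Of 39 proteasome subunits, 11 (28.2%) stood below Gh in every library, with a median of -0.30 and of -0.13 in Sh TRAP 1 and 4. Psmb7, a catalytic subunit, stood at 124, 114 and 122 CPM in Gh and at 95.5, 81.3, 40.2 and 94.8 CPM in Sh. No member of these 4 lists passed the edgeR threshold. DESeq2 called 5 of 83 respiratory chain members and 1 of 77 mitochondrial ribosomal proteins lower, against 74 (0.442%) of all 16754 genes. In input the medians were also negative, at -0.17 for the respiratory chain, -0.19 for the cytosolic and -0.13 for the mitochondrial ribosomal proteins and -0.14 for the proteasome.

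Genes of the neuronal cytoskeleton stood lower in Sh TRAP 1 and 4, and less clearly in the other pair. Of 33 genes for tubulins, stathmins, neurofilaments and microtubule-associated proteins, 10 (30.3%) stood below Gh in every library and 1 (3.03%) above. Of all genes, 6.88% stood below and 6.17% above. The median of the 33 genes was -0.14 over all libraries, -0.23 in Sh TRAP 1 and 4 and -0.08 in Sh TRAP 2 and 3. Relative to the Gh mean the median was 0.04 in Sh TRAP 2 and -0.16 in Sh TRAP 3, and within replicates 2 and 3 it was -0.003. In input the median was -0.12. The genes found in neurons in general, described with the markers, had a median of -0.32 in Sh TRAP 1 and 4. Stmn1, which encodes stathmin, a protein that takes up free tubulin, stood at 444, 354 and 479 CPM in Gh and at 271, 260, 178 and 275 CPM in Sh (log2 fold change -0.79, SE 0.18, with edgeR adjusted p = 0.206 and DESeq2 adjusted p = 0.0171). Stmn2, its relative in growing axons, stood at 267, 215 and 261 CPM in Gh and at 176, 191, 163 and 173 CPM in Sh. Tppp3, a tubulin polymerization-promoting protein, stood at 14.5, 15.9 and 17.8 CPM in Gh and at 10.1, 8.01, 4.83 and 9.82 CPM in Sh. The fluoxetine libraries held 207 to 305 CPM of Stmn2, which covers the Gh samples.

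Of 37 synaptic vesicle and SNARE proteins, 5 (13.5%) stood below Gh in every library and 2 (5.41%) above, against 6.88% and 6.17% of all genes. The median was 0.03, with -0.14 in Sh TRAP 1 and 4 and 0.18 in Sh TRAP 2 and 3. Cplx1, a complexin that clamps vesicle fusion, stood at 361, 340 and 402 CPM in Gh and at 290, 293, 219 and 276 CPM in Sh. Stx1a, a syntaxin of the fusion machinery, stood at 46.7, 56.6 and 69.3 CPM in Gh and at 34.5, 47.6, 23.1 and 33.5 CPM in Sh, with Sh TRAP 2 inside the Gh range.

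Channels, synaptic scaffolds and chromatin regulators showed a pattern that rested on Sh TRAP 2 and 3. The median log2 fold change was 0.55 for 10 sodium channel subunits, 0.50 for 18 calcium channel subunits and 0.51 for 20 genes of calcium release and pumping, and it was -0.12, -0.09 and 0.03 in Sh TRAP 1 and 4. Scn8a, the sodium channel of the axon initial segment, stood at 450, 463 and 391 CPM in Gh, at 407 and 405 CPM in Sh TRAP 1 and 4 and at 918 and 1594 CPM in Sh TRAP 2 and 3. Bsn, the scaffold bassoon of the active zone, stood at 498, 691 and 532 CPM in Gh, at 556 and 519 CPM in Sh TRAP 1 and 4 and at 1440 and 1734 CPM in Sh TRAP 2 and 3. In both genes the first pair lay within the Gh range.

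The same split was seen in Ryr3, a calcium release channel, with log2 differences of -0.04 in Sh TRAP 1 and 4 and 2.11 in Sh TRAP 2 and 3, in Cacna1e, an R-type calcium channel, with -0.01 and 1.47, and in the postsynaptic scaffold Lrrc7, with -0.07 and 1.63. Kmt2a, a histone methyltransferase, differed by 0.07 and 1.16, and the 44 chromatin regulators had medians of -0.04 and 0.67. Ryr1, a calcium release channel known from muscle, was higher in each pair, at 3.33, 6.17 and 4.16 CPM in Gh, 7.68 and 7.23 CPM in Sh TRAP 1 and 4 and 23.4 and 23.5 CPM in Sh TRAP 2 and 3 (log2 fold change 1.74, SE 0.51, with edgeR adjusted p = 0.206 and DESeq2 adjusted p = 0.0424). Shank1, a postsynaptic scaffold, differed by 0.13 and 1.22. Atp2b1, a calcium pump of the plasma membrane, differed by 0.15 and 1.17.

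Of 39 cadherins and protocadherins, 8 (20.5%) stood above Gh in every library, against 6.17% of all genes, and none stood below. Their median was 0.39, with -0.01 in Sh TRAP 1 and 4. Pcdh11x, an X-linked protocadherin, stood at 26.3, 21.2 and 17.4 CPM in Gh and at 27.1, 42.3, 58.8 and 29.1 CPM in Sh, so that Sh TRAP 1 exceeded Gh TRAP 1 by less than the Gh samples differed. Celsr3, a cadherin of axon tracts, differed by -0.15 in Sh TRAP 1 and 4 and by 2.44 in Sh TRAP 2 and 3. The nuclear noncoding RNAs behaved likewise, with medians of -0.11 and 1.47 over 17 genes. Meg3 differed by 0.16 and 1.86, and Firre by 0.24 and 2.25.

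Of 39 genes regulated by activity, 18 had a positive and 21 a negative log2 fold change. In every library 2 (5.13%) stood below Gh and 1 (2.56%) above, under the 6.88% and 6.17% of all genes. Nrn1, which encodes neuritin, a protein that promotes neurite growth, stood at 178, 169 and 175 CPM in Gh and at 115, 113, 89.2 and 123.2 CPM in Sh TRAP 1 to 4. All 4 Sh libraries lay below the Gh samples (log2 fold change -0.66, SE 0.16, with edgeR adjusted p = 0.206 and DESeq2 adjusted p = 0.0285), and in input Nrn1 differed by -0.03. Bdnf, the neurotrophin, stood at 22.9, 16.5 and 10.6 CPM in Gh and at 8.77, 13.7, 13.1 and 9.92 CPM in Sh, with overlap. Jund, an AP-1 subunit, also overlapped between the groups, at 30.8 to 46.0 CPM in Gh and 17.3 to 31.9 CPM in Sh.

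Among 39 tested genes of stress and social neuropeptide systems, 3 stood above Gh and 2 below in every library (7.69% and 5.13%), close to the 6.17% and 6.88% of all genes. Oxt, which encodes oxytocin, a peptide of hypothalamic neurons, stood at 4.14, 1.48 and 3.77 CPM in Gh and at 0.29, 0.34, 0 and 0.41 CPM in Sh TRAP 1 to 4. These are 41, 41, 29 and 154 counts in Gh TRAP 1 to 4 and 10, 4, 0 and 8 counts in Sh TRAP 1 to 4, and the log2 fold change of -3.57 (SE 0.79, with edgeR adjusted p = 0.206 and DESeq2 adjusted p = 0.00102) depends on the handling of low counts. Oxt was not abundant enough to be tested in input, and the fluoxetine libraries held 0.42 to 1.77 CPM. Tac1, which encodes substance P and is also a marker of striatal neurons, stood at 14.7, 14.5 and 12.04 CPM in Gh and at 17.8, 27.1, 39.7 and 18.3 CPM in Sh.

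Of 27 genes of the Atf4 stress response, 2 (7.41%) stood below Gh in every library and 1 (3.70%) above, near or under the 6.88% and 6.17% of all genes. Their median was -0.04, with 0.09 in Sh TRAP 1 and 4 and -0.44 in Sh TRAP 2 and 3. Atf4 itself, the transcription factor of the integrated stress response, stood at 117, 108 and 117 CPM in Gh and at 92.5, 65.1, 64.5 and 93.8 CPM in Sh (log2 fold change -0.53, standard error 0.16, edgeR adjusted p = 0.206). Ddit3, a factor that Atf4 induces, stood at 13.4, 13.2 and 13.3 CPM in Gh and at 10.03, 6.72, 5.61 and 9.82 CPM in Sh. Of 25 genes for glucocorticoid receptors and their targets, 3 (12%) stood above Gh in every library and 1 below, against 6.17% and 6.88% of all genes. Their median was -0.29, with -0.05 in Sh TRAP 1 and 4 and -0.59 in Sh TRAP 2 and 3. Plin4, a lipid droplet protein, stood at 0.50, 0.68 and 0.91 CPM in Gh and at 2.23, 2.84, 7.49 and 2.58 CPM in Sh. Pdk4, a kinase that holds back pyruvate oxidation, stood at 6.87, 5.69 and 4.31 CPM in Gh and at 7.95, 10.2, 11.9 and 7.39 CPM in Sh, whereas Cdkn1a, a cell cycle inhibitor, overlapped between the groups.

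Of 13 serotonin receptors tested, none was called by edgeR or DESeq2. These called 0% and 1.22% of all genes, so that the lack of calls does not set the receptors apart. In every library 2 (15.4%) stood above Gh and 1 (7.69%) below, against 6.17% and 6.88% of all genes. The list median was -0.395 in Sh TRAP 1 and 4 and 0.341 in Sh TRAP 2 and 3. Relative to the Gh mean, Sh TRAP 1 and 4 themselves differed, at 0.145 and -0.385. Htr7, a receptor coupled to Gs, stood at 12.7, 15.4 and 15.96 CPM in Gh and at 8.09, 12.1, 10.2 and 7.80 CPM in Sh (log2 fold change -0.63, standard error 0.31, 95% interval from -1.28 to 0.01, edgeR adjusted p = 0.325). Htr2b, a receptor coupled to Gq, was scarce, at 0.61, 0.70 and 0.83 CPM in Gh and at 1.73, 2.15, 2.44 and 1.34 CPM in Sh. Of 26 G protein subunits, 3 (11.5%) stood below Gh in every library and 1 (3.85%) above, against 6.88% and 6.17% of all genes. The 1 above was Gnb4, a beta subunit, at 27.3, 22.2 and 22.3 CPM in Gh and 34.9, 31.7, 38.8 and 37.3 CPM in Sh. Gnb4 differed by 0.60 in Sh TRAP 1 and 4 and by 0.56 in Sh TRAP 2 and 3. Among 32 genes of neurotrophin and insulin receptor signaling, 4 (12.5%) stood above Gh in every library and 1 (3.1%) below. Of all genes, 6.17% stood above and 6.88% below. The 4 included Pik3c2b, the receptor for insulin-like growth factor Igf1r and the neurotrophin receptor Ntrk3. Ntrk3 cleared Gh narrowly, at 0.177 from the Gh mean in Sh TRAP 1 against 0.175 in the merged Gh TRAP 2 and 3. Igf1r and Ntrk3 differed by 0.21 and 0.18 in Sh TRAP 1 and 4 and by 0.81 and 1.22 in Sh TRAP 2 and 3.

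Of the other lists, heat shock proteins and chaperonins had a median of -0.13 over 37 genes, translation factors of -0.20 over 59 and splicing factors of -0.13 over 56. In Sh TRAP 1 and 4 these medians were -0.09, -0.04 and -0.05, and in Sh TRAP 2 and 3 they were -0.19, -0.44 and -0.26. Postsynaptic scaffolds had a median of 0.28 over 31 genes and presynaptic scaffolds of 0.32 over 22, and both were below 0 in Sh TRAP 1 and 4. Partners of S100a10, cholesterol synthesis and clock genes had medians of 0.12, 0.09 and -0.05, and of 0.08, 0.003 and -0.07 in Sh TRAP 1 and 4. No gene of these lists was called by edgeR over all libraries.

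**Figure D4:**
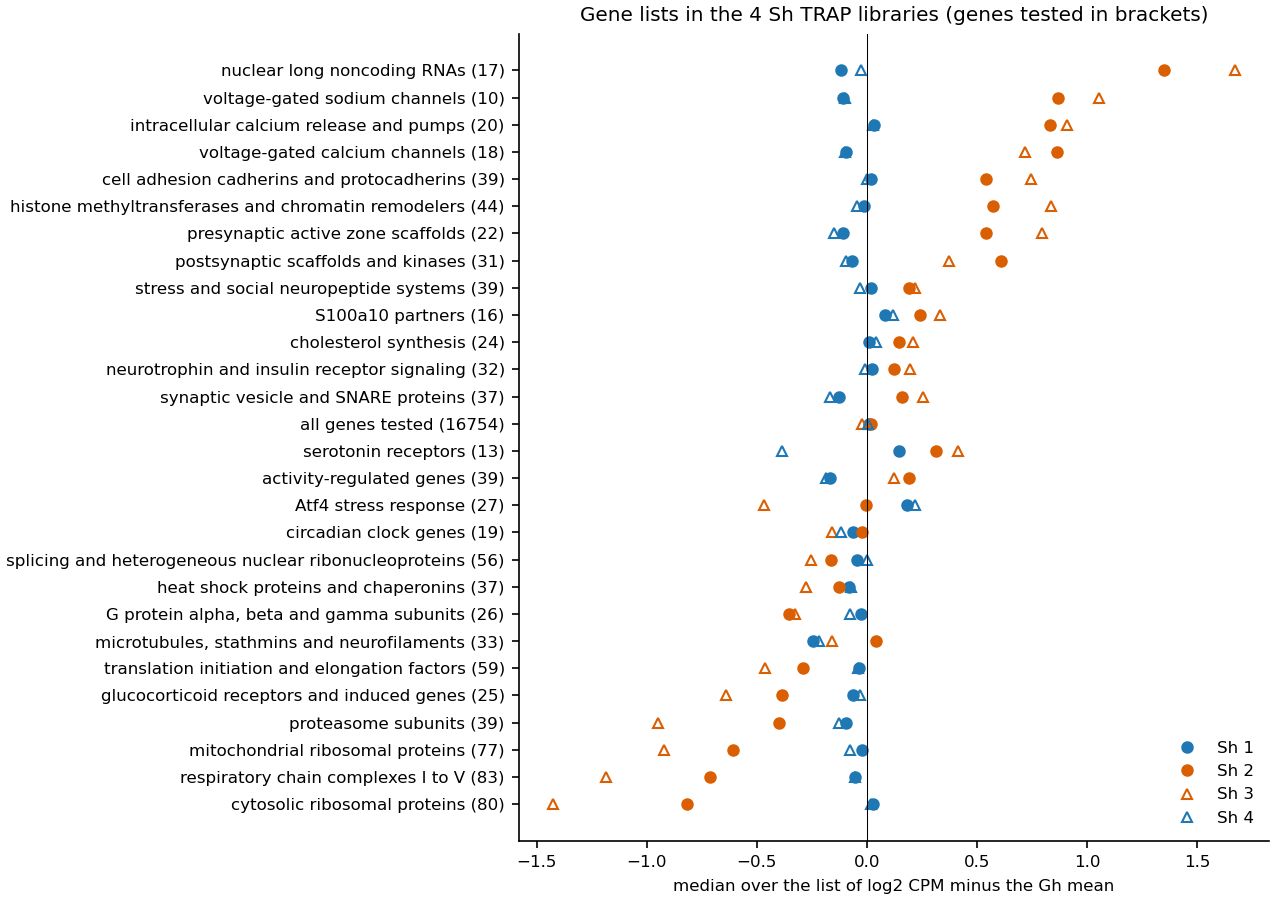
Median over each gene list of log2 CPM minus the Gh mean (horizontal axis) in Sh TRAP 1 and 4 (blue) and Sh TRAP 2 and 3 (orange), with the number of genes tested in brackets; lists are ordered by their median log2 fold change. The blue points stay close to 0 for most lists while the orange ones spread from the cytosolic ribosomal proteins, at a fitted median of -1.09, to the nuclear noncoding RNAs, at 1.47.

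Markers of other cell types differed between the groups and between the pairs of Sh libraries. In bulk RNA, fewer cells of a type and less RNA per cell cannot be told apart. The 10 markers of S100a10 and layer 5 intratelencephalic neurons, all detected, summed to 1211 to 1283 CPM of library size in Gh and 926 to 1123 in Sh, and the 9 markers of layer 5 extratelencephalic neurons to 772 to 896 and 619 to 701. The median log2 fold change of the latter was 0.03, in the other direction from their sum. In input the former summed to 1244 to 1270 in Gh and 1183 to 1316 in Sh. In TRAP, 0 of these 10 markers stood below Gh in every library and 1 above, against 6.88% and 6.17% of all genes. The sums given for cell types lack the TMM scaling used for single genes. Its factor was 0.86 in Sh TRAP 3 and 0.99 to 1.035 in the other Gh and Sh samples. Such scaling would raise the sums of Sh TRAP 3 relative to the others. Etv1, a defining gene of layer 5, stood at 211, 215 and 200 CPM in Gh and at 167, 176, 274 and 174 CPM in Sh, with Sh TRAP 3 above Gh. Rorb, also made in layer 4, stood at 471, 412 and 433 CPM in Gh and at 316, 350, 566 and 331 CPM in Sh. Pcp4, a calmodulin-binding protein of deep layers, stood at 626, 483 and 566 CPM in Gh and at 378, 340, 356 and 363 CPM in Sh, below Gh in every library (log2 fold change -0.64, standard error 0.18, edgeR adjusted p = 0.206).

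Some of the 14 genes found in neurons in general are also in the cytoskeleton list, such as Stmn2, or the synaptic vesicle list, such as Snap25. The counts of these lists are therefore not independent. Of the 14 genes, 4 (28.6%) stood below Gh in every library, against 6.88% of all genes. Their sums were 22330 to 27270 CPM in Gh and 20580 to 24250 in Sh. Snap25, the most abundant of them, stood at 19370, 14780 and 17530 CPM in Gh and at 13680, 11320, 14710 and 13850 CPM in Sh. Camk2a, another of them, differed from the Gh mean by -0.018 and -0.125 on the log2 scale in Sh TRAP 1 and 4. In Sh TRAP 2 and 3 it was higher, by 0.968 and 1.24. The list median relative to the Gh mean was -0.30, 0.27, -0.07 and -0.36 in Sh TRAP 1 to 4. Of 15 astrocyte markers, 5 (33.3%) stood above Gh in every library, against 6.17% of all genes. Their sums were 3069 to 3245 CPM in Gh and 3824 to 4373 in Sh. Their median log2 fold change was 0.26 in Sh TRAP 1 and 4 and 0.28 in Sh TRAP 2 and 3. Over all libraries 11 of the 15 had a positive and 4 a negative log2 fold change. Slc1a2, the glutamate transporter of astrocytes, stood at 1820, 1773 and 1693 CPM in Gh and at 2165, 2847, 3834 and 2189 CPM in Sh. Gjb6, another astrocyte marker, differed from the Gh mean by 0.25 and 0.28 on the log2 scale in Sh TRAP 1 and 4. In Sh TRAP 2 and 3 it differed by -1.33 and -0.85. Of 14 striatal markers, 5 (35.7%) stood above Gh in every library, against 6.17% of all genes. Their sums were 868 to 907 CPM in Gh and 971 to 1012 in Sh, and those of input were 1030 to 1126 in Gh and 1140 to 1299 in Sh. No marker of these lists was at 0 in either group, and the part of these cells in the differences of single genes was not tested.

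Myelin markers summed to 1137 to 1207 CPM in Gh and 1325 to 1604 in Sh, and Mbp, myelin basic protein, stood at 122, 137 and 125 CPM in Gh and at 146, 367, 307 and 142 CPM in Sh. Interneuron markers summed to 928 to 999 CPM in Gh, to 991 and 980 CPM in Sh TRAP 1 and 4 and to 1477 and 1498 CPM in Sh TRAP 2 and 3. Gad2, an enzyme of GABA synthesis, followed this sum. Cck, another marker of the list, differed from the Gh mean by -0.34 and -0.36 on the log2 scale in Sh TRAP 2 and 3. The list median did not split between the pairs, at 0.30, 0.29, 0.37 and 0.31 in Sh TRAP 1 to 4. The 17 fibroblast markers summed to 8822 to 10560 CPM in Gh, to 13820 and 13630 CPM in Sh TRAP 1 and 4 and to 3936 and 2932 CPM in Sh TRAP 2 and 3. In input they summed to 222 to 263 CPM in Gh and 237 to 262 in Sh. Ptgds, the prostaglandin D synthase of the brain membranes, stood at 5246, 4632 and 6038 CPM in Gh and at 7990, 2138, 1226 and 7998 CPM in Sh, so that the 2 pairs lay on opposite sides of Gh, and Igf2, a growth factor of the same cells, did the same.

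Microglial markers summed to 124 to 139 CPM in Gh, to 137 and 135 CPM in Sh TRAP 1 and 4 and to 91.4 and 87.5 CPM in Sh TRAP 2 and 3. Endothelial markers summed to 283 to 324 CPM in Gh and to 371 and 378 CPM in Sh TRAP 1 and 4, and mural markers to 256 to 297 and to 366 and 350 CPM. Both sums were lower in Sh TRAP 2 and 3, at 239 and 222 CPM and at 178 and 147 CPM. The summed markers of oligodendrocyte precursors split in the same way, at 309 to 320 CPM in Gh, 358 and 338 CPM in Sh TRAP 1 and 4 and 176 and 185 CPM in Sh TRAP 2 and 3. The list medians did not all follow these sums. In Sh TRAP 2 and 3 the median log2 difference from the Gh mean was 0.26 and 0.28 for endothelial markers, opposite to their sum. It was -0.35 and -0.29 for mural markers and 0.01 and -0.09 for precursor markers. Markers of upper layers, of layer 6 and of choroid plexus overlapped between the groups. The 8 red blood cell genes summed to 0.50 to 1.88 CPM in Gh and 2.09 to 5.88 CPM in Sh, with 4 of them at 0 in every Gh and 5 in every Sh TRAP library. Alas2, the heme synthesis enzyme of red cell precursors and the only one tested, stood at 1.31, 1.33 and 0.24 CPM in Gh and at 1.94, 5.94, 4.78 and 2.79 CPM in Sh (log2 fold change 2.03, SE 0.61, with edgeR adjusted p = 0.206 and DESeq2 adjusted p = 0.0420). The part of these cells in other differences was not tested.

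In input, the whole-cortex RNA of the same groups, 13 of 15690 genes were called by edgeR (0.0829%), 7 higher (0.0446%) and 6 lower (0.0382%), and 433 (2.76%) and 488 (3.11%) stood above or below Gh in every library. These shares cannot be compared with those of TRAP, where only 3 Gh samples had to be passed in place of 4. The count of 13 was 0 with replicates 1 and 4 and replicates 2 and 3 summed, 33 without Gh input 1 and 3 to 7 without any other input library. Of 15540 genes tested in both fractions, 60 stood above and 82 below Gh in every library of both. The change from Gh to Sh differed between TRAP and input for 4 of 17015 genes (0.0235%; 3 higher in TRAP, 0.0176%, and 1 lower, 0.00588%), tested as an interaction in edgeR.

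Fam160b2, which belongs to a family that ties cargo to dynein, stood at 91.2, 71.6 and 87.4 CPM in Gh and at 142, 112, 152 and 124 CPM in Sh in TRAP mRNA. It differed by 0.67 in TRAP and by -0.32 in input, a difference of 1.0 (standard error 0.18, adjusted p = 0.0460 from edgeR). Rasl10a differed by 0.91 in TRAP and -0.25 in input, a difference of 1.17 (standard error 0.22, edgeR adjusted p = 0.0462). Aspg differed by 2.35 and -1.03, a difference of 3.41 (standard error 0.65, edgeR adjusted p = 0.0480), and Zfp873 by -1.26 and 0.26, a difference of -1.51 (standard error 0.28, edgeR adjusted p = 0.0460). In TRAP these genes differed from Gh alike in both pairs of Sh libraries, with 0.68 and 0.66 for Fam160b2, 0.99 and 0.81 for Rasl10a and 2.27 and 2.44 for Aspg. The test was fitted on these same libraries and favors genes with little spread among them. This likeness therefore follows in part from the choice. Without Sh TRAP 2 and 3 the interaction called 63 genes, 16 of them higher in TRAP. The count of 4 was 0 without Gh replicate 1 or 2, 1 without Gh replicate 4 or Sh replicate 2, 23 without Sh replicate 1 and 106 without Sh replicate 4. With a replicate block that sets TRAP against input of the same group and number, edgeR called 1 gene, Fam160b2 (1.06, adjusted p = 0.0399), and the adjusted p was 0.101 for Rasl10a, 0.198 for Zfp873 and 0.200 for Aspg.

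**Figure D5:**
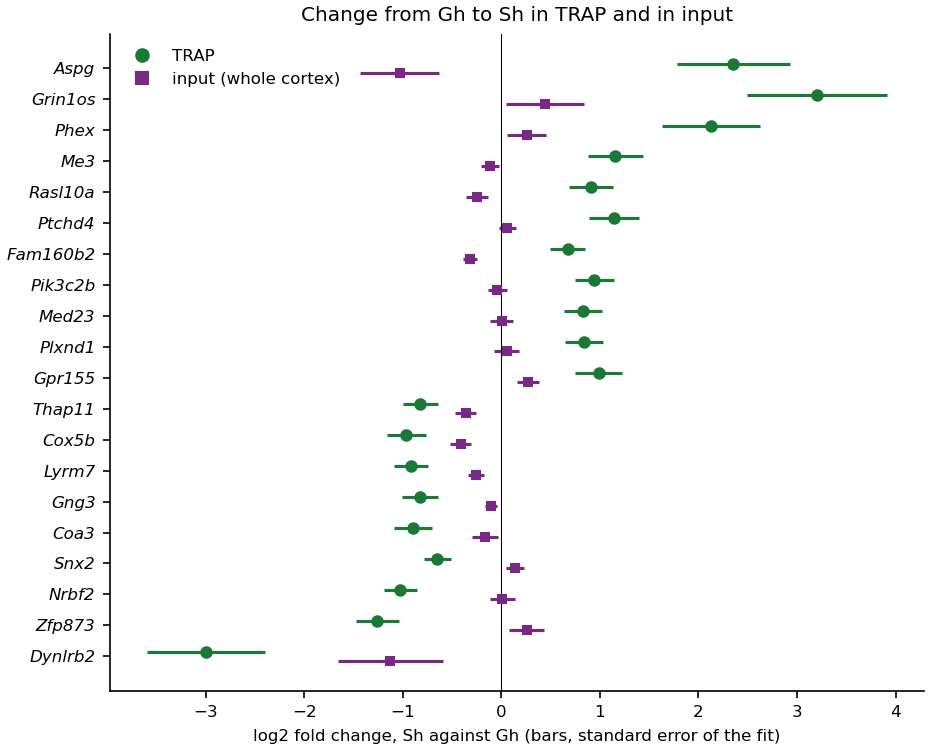
Log2 fold change of Sh against Gh (horizontal axis; bars, standard error of the edgeR fit) in TRAP (green circles, 4 Sh and 3 Gh samples) and in input (purple squares, 4 and 4 libraries) for Fam160b2 and the genes of smallest p that were tested in both fractions, ordered by the difference. Aspg and Zfp873 lie on opposite sides of 0 in the 2 fractions, at 2.35 and -1.03 and at -1.26 and 0.26.

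The differences were also set against properties of the genes. Over 16047 to 16102 genes the Spearman correlation between the log2 fold change and the TRAP over input ratio of the fluoxetine groups was -0.42, with 0.14 in Sh TRAP 1 and 4 and -0.59 in Sh TRAP 2 and 3. Among 5 classes of genes of equal size by the length of their span in the genome, the median log2 fold change went from -0.15 in the shortest class (up to 7336 bases) to 0.19 in the longest (from 71557 bases), and it was -0.01 and -0.02 in these classes in Sh TRAP 1 and 4 and -0.42 and 0.34 in Sh TRAP 2 and 3. These values are across genes, which share libraries, and are given as descriptions.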

How the data were processed

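RNA was measured in 32 libraries, each from the cortices of 3 pooled mice. The authors amplified TRAP and input RNA with the Ovation RNA-Seq V2 kit, which does not mark strand, sequenced it on a NextSeq 500, aligned it with TopHat2 2.0.11 to mm10 and deposited raw counts, in which each gene has a whole number of reads or fragments. The counting tool and strand setting are not stated in what was used here. Deposited tables of the authors' own comparisons (mean FPKM, fold changes and p-values) were not used. Of 24062 genes, 23869 matched a RefSeq gene by symbol, and 5 lines that name no gene were left out.

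Counts were analysed in R 4.3.3 with edgeR 4.0.16 (TMM scaling, filterByExpr by group, quasi-likelihood test, Benjamini-Hochberg adjustment over all genes tested, threshold 0.05), after a check on simulated data. All TRAP groups entered a single fit, with Gh TRAP 2 and 3 summed, and input was fitted alone or, for the difference between fractions, together with TRAP. Low counts limit the precision, and depth differs between libraries as given in the report. Replicates were compared by a chi-square test over genes with at least 50 counts in the pair. DESeq2 1.42.0, limma 3.58.1, other filters and scaling, left-out libraries and a replicate block were alternatives. In TRAP, deviations of libraries with the same replicate number correlated between Gh and Sh at 0.116, 0.244, 0.183 and 0.203 over 11321 genes of at least 5 CPM, which met the limit of 0.1 set for pairing. Different numbers within 1 and 4 or within 2 and 3 correlated at 0.146 to 0.225, and numbers across these sets at -0.25 to -0.027, so that the data mark 2 sets of replicates and not single pairs. The block left the count of genes called at 0.

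Named genes were the 10 higher and 10 lower of smallest p among genes whose groups do not overlap, the 8 in each direction with the greatest smaller change of both pairs of Sh libraries at a mean of at least 5 CPM, those called with Sh TRAP 1 and 4 alone, up to 3 members of each list by p, the 5 in each direction of smallest p for the difference between fractions, and the 2 most abundant markers of a cell type, with predicted gene models passed over except among list members, markers and genes called in Sh TRAP 1 and 4. S100a10, Malat1 and Mbp served as library checks. Not every gene the rule allows is described, and 1 item is not reported here. The comparison, its gene lists and the alternatives were chosen with earlier results of these data known.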

Additional observations from a re-analysis of the deposited data

Results flagged for a closer look

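In 11 of 126 groups of 4 libraries, 1 library lay farther from the others than Dixon's 95% critical value for the gap over the range allows, which chance gives in about 1 in 20 groups. Sh TRAP 3 was highest for Tnnt2 (16.6 CPM), Phex (14.8 CPM), Plin4 (7.49 CPM), Etv1 (274.2 CPM) and Rorb (566 CPM), and lowest for Stmn1 (177.7 CPM). Sh TRAP 2 was lowest for Katnbl1 (14.5 CPM) and for the summed markers of layer 6 and subplate neurons (495.4 CPM). Sh TRAP 4 was highest for Pkp2 (7.54 CPM) and Sh TRAP 1 for Syndig1l (8.97 CPM), although the 4 libraries were close in both genes. Gh TRAP 1 was highest for the summed astrocyte markers (3245 CPM).

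The log2 change from Gh to Sh differed between TRAP and input, by a test of the interaction in edgeR, for Aspg (3.41, adjusted p = 0.0480), Fam160b2 (1.0, adjusted p = 0.0460), Rasl10a (1.17, adjusted p = 0.0462) and Zfp873 (-1.51, adjusted p = 0.0460). With a replicate block of group and number, only Fam160b2 of these 4 passed (edgeR adjusted p = 0.0399).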

How the results depend on the processing

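Over all TRAP libraries edgeR called 0 genes, also with RLE scaling, with no or a stricter filter, with Gh and Sh libraries only, with replicates 1 and 4 and replicates 2 and 3 summed, with either replicate block and without any 1 replicate (0 to 0). It called 2 when Gh TRAP 2 and 3 stayed apart, 1 with the percent of reads outside features as a covariate, 6 without Sh TRAP 2 and 3 and, in a comparison chosen after seeing the data, 5001 without Sh TRAP 1 and 4. DESeq2 called 204 and limma voom with sample quality weights 2016. The causes of these differences were not tested. With Sh TRAP 1 and 4 alone the 6 genes became 257 with DESeq2, 98 with Gh TRAP 2 and 3 separate and 1 to 6 when 1 Gh replicate was left out.

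In input, same-numbered libraries correlated between Gh and Sh at 0.05 to 0.131, not all above 0.1, while replicates 1 and 4 and replicates 2 and 3 again fell into sets (correlations of 0.043 to 0.131 within them and -0.154 to -0.008 across). There the 13 genes became 4 with the replicate block, 151 with DESeq2, 42 with no filter, 0 with pairs of replicates summed (chosen after seeing the data) and 3 to 33 when 1 replicate was left out. The 4 genes that differed between TRAP and input became 63 without Sh TRAP 2 and 3, 1 with a replicate block of group and number (chosen after seeing the data) and 0 to 106 when 1 replicate was left out. The replicate block by number changed no other call.

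Of 88 named genes, 75 kept the sign of their log2 fold change under every alternative. Without Sh TRAP 2 and 3 the sign reversed for S100a10 (0.064), Malat1 (-0.06), Ryr3 (-0.041), Scn8a (-0.098), Cacna1e (-0.011), Bsn (-0.094), Lrrc7 (-0.072), Celsr3 (-0.15), Ptgds (0.591) and Igf2 (0.385). With the covariate it reversed for the same genes, at 0.107, -0.183, -0.117, -0.223, -0.041, -0.16, -0.196, -0.094, 0.767 and 0.395 in that order. With voom weights it reversed for S100a10 (0.035), Scn8a (-0.068), Bsn (-0.01), Celsr3 (-0.081), Ptgds (0.547) and Igf2 (0.35), and without Sh TRAP 1 and 4 for Prl (-2.655), Etv1 (0.104) and Rorb (0.054). When 1 replicate was left out, Etv1 ranged from -0.278 to 0.001, Ptgds from -0.486 to 0.183 and Igf2 from -0.36 to 0.101, with positive values for Etv1 without Sh 1 and for Ptgds (0.114 and 0.183) and Igf2 (0.101 and 0.026) without Sh 2 and without Sh 3. Genes with few counts, such as Oxt, Aspg and Dynlrb2, are limited by depth.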
